A study of Mus musculus with 4 samples.

Results

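Calpains are cysteine proteases of the cytosol that cut a limited number of sites in their target proteins. The data described here cover the mouse calpain system: the catalytic subunits, the small regulatory subunits Capns1 and Capns2, and calpastatin (Cast), the inhibitor of the classical enzymes. Of 10 genes listed for the system, 9 had a probe set (the group of probes that reports one gene) carrying their symbol alone, out of 19938 genes with a value in all. The exception was Capn3, the calpain of skeletal muscle, whose probe set is annotated to both Ganc and Capn3 and was not assigned to either. The 9 genes with a value were Capns1, Capns2, Capn1, Capn2, Capn5, Capn6, Capn7, Capn15 and Cast, and each had 1 probe set.

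The arrays measured messenger RNA in NIH3T3, an established line of mouse fibroblasts, and all 4 samples came from a single stable clone, p19, that carried pBI-EGFP-FLAG-mCtcfl and pTA-N. In this Tet-Off system the transgene for CTCFL, a testis-expressed paralog of the insulator protein CTCF, is repressed by doxycycline. The 2 control samples were kept in 2 µg/ml doxycycline, and the 2 Ctcfl samples spent 48 h without the drug, so loss of the drug and induction of the transgene always coincided and cannot be told apart. No label states if the replicates came from different cultures, so errors and p-values measure array-to-array spread that could be purely technical. The calpain genes were picked with the difference between the groups already known, Capns2 being among the largest, so their differences are given as a description and without a test.

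The classical calpains, mu-calpain (Capn1) and m-calpain (Capn2), are heterodimers of a catalytic subunit and the small subunit Capns1, are switched on by calcium, and are held in check by calpastatin. In fibroblasts they are known for cutting talin, spectrin and other proteins that link integrins to actin, which matters for the turnover of adhesions and for migration. Capns2 is a second small subunit, whose gene lacks introns. Capn5, Capn6, Capn7 and Capn15 are non-classical calpains, without the calcium-binding penta-EF-hand domain of the classical enzymes.

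Capns2 lies inside another gene. In GRCm38.p6 it spans chr8:92901395-92902409, or 1015 bases, within the 64.0 kb of Lpcat2 at chr8:92855313-92919279, and both genes are read from the same strand. Lpcat2 encodes a lysophospholipid acyltransferase. The start of Capns2 is 46.1 kb downstream of the start of Lpcat2. The RefSeq windows from 250 bases before to 50 bases after the annotated start are shown for Capns2, for its host Lpcat2, for the paralog Capns1 and for Capn6, the only member with lower values in the Ctcfl arrays. They are the windows chr8:92901145-92901444 (plus strand), chr8:92855083-92855382 (plus strand), chr7:30195104-30195403 (minus strand) and chrX:143827363-143827662 (minus strand), in that order. The annotated start of a window need not be the outer end of the gene. The Capns1 window lies inside the gene span, chr7:30186934-30198883, so it describes an internal start. That of Lpcat2 is set on a start slightly inside the span given above. Capitals mark AGGNGGC, the core of the motif that CTCF and CTCFL share, and GGGCGG, the GC box bound by Sp1-type factors, on either strand.
Capns2: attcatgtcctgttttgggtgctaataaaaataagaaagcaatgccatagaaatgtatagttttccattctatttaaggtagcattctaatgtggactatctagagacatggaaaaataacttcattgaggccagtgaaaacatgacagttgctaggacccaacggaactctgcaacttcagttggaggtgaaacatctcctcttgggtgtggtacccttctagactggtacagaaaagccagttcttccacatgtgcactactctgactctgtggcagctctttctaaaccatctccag
Lpcat2: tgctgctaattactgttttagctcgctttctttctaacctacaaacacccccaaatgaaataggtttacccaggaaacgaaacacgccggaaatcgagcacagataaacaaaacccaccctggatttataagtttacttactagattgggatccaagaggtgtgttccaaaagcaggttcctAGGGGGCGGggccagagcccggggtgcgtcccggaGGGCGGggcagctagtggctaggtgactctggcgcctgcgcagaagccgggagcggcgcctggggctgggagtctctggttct
Capns1: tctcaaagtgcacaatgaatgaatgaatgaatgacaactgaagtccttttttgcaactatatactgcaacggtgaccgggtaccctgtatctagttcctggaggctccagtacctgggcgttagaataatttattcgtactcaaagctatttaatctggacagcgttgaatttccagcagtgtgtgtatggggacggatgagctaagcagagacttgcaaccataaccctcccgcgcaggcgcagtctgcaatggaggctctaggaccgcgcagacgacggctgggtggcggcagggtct
Capn6: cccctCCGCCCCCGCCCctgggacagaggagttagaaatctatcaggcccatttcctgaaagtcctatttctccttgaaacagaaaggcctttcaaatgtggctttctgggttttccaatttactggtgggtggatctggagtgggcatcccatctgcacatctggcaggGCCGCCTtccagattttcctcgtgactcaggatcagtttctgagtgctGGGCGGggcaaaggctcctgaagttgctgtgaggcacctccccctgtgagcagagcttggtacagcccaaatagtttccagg

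The Capns2 window held neither motif on either strand and had 1 CpG and 41.3% G and C, whereas the median over 32851 mouse windows of the same length was 7 CpG and 52.7%. The Lpcat2 window held 15 CpG, 2 GC boxes and 1 match to AGGNGGC, spelled AGGGGGC, which runs from position -68 to -62 with the annotated start as position 0 and overlaps the first GC box by 4 bases. The window of Capns1, which lies inside the gene span, had 14 CpG and neither motif. That of Capn6 had 5 CpG, 3 GC boxes and 1 match to AGGNGGC on the opposite strand. AGGNGGC was present in 29.4% of all windows and the GC box in 35.7%, so a single match is common. RefSeq windows were matched for 9 of the 10 listed genes (all but Capn5), 16 windows in all. Of these 16 windows 4 held AGGNGGC, 1 each for Capn1, Capn2, Capn6 and Cast. Some genes had several windows, so the count of windows is the one to set beside 29.4%. These matches describe letters and say nothing about binding.

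The labels were checked first. The Ctcfl probe set read 7.77 and 7.71 in the control arrays and 10.37 and 10.35 in the Ctcfl arrays, on the log2 scale of the deposited expression values, which is used throughout. Both control values were above the upper quartile of their arrays (7.43 and 7.40), so the controls are not shown to be free of Ctcfl RNA. The source of this control signal was not tested. Ctcfl rose by 2.62 (SE 0.08, adjusted p = 5.38e-04 by limma, n = 2 per group). Over all 19938 genes, 9 passed an adjusted p of 0.05, or 0.0451%, 6 of them higher (0.0301%) and 3 lower (0.015%) in the Ctcfl arrays. Of fibroblast markers, 9 of 10 were above the array median on at least 1 array, with Vim from 12.03 to 12.13, while Lum, the fibroblast proteoglycan lumican, stayed between 2.82 and 2.98. The fibroblast markers were not level between the groups: 8 of 10 had lower means in the Ctcfl arrays, 7 (70.0%) had groups that did not overlap (6 lower, 1 higher) against 41.1% of all genes, and their mean level was 9.48 and 9.47 in the control arrays and 9.34 and 9.29 in the Ctcfl arrays. None passed (limma, 3 at an unadjusted p under 0.05, all lower). The lowest differences were those of the growth factor receptor gene Pdgfrb (-0.56, SE 0.09, adjusted p = 0.180) and the type III collagen gene Col3a1 (-0.38, SE 0.09, adjusted p = 0.288). The part of these markers in the differences of the calpain genes was not tested. Of 38 measured markers of 6 other cell types (epithelium, keratinocytes, skeletal muscle, immune cells, endothelium and germ cells), 27 were below the median of every array and none passed (limma, 2 at an unadjusted p under 0.05). The mean level of these lists ran from 3.92 to 5.26 in control arrays and from 3.93 to 5.24 in Ctcfl arrays. The largest difference among them was that of Krt8, a simple epithelial keratin gene (0.58, SE 0.14, adjusted p = 0.312 by limma).

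Capns2 had the largest difference of the calpain genes. It read 4.42 and 4.72 in the control arrays and 5.84 and 5.92 in the Ctcfl arrays. Both Ctcfl arrays were above both controls by more than 1 log2 unit, and the controls differed more from each other than the Ctcfl arrays did. The mean went from 4.57 ± 0.21 to 5.88 ± 0.06 (SD, n = 2 per group), 2.48-fold higher (log2 difference 1.31, SE 0.12). Counting both directions, 6 genes including Capns2 had a difference at least as large. The control values were dim: 33.3% and 39.8% of all probe sets were lower on those arrays, against 58.2% and 59.2% on the Ctcfl arrays. How much of the control signal is background is not known, and a fold against a dim group can understate the change.

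Lpcat2, which contains Capns2, moved the same way and further. It read 5.04 and 5.24 in the control arrays and 7.26 and 7.34 in the Ctcfl arrays. Set against its own control mean, Lpcat2 was higher by 2.12 and 2.20 in Ctcfl replicates 1 and 2, where Capns2 was higher by 1.27 and 1.35. In both genes control replicate 1 was the lowest array and Ctcfl replicate 2 the highest. The Lpcat2 increase of 2.16 (SE 0.10, adjusted p = 0.00248 by limma) exceeded that of Capns2 by 0.85. Its adjusted p was 0.136 when every probe set of the table was fitted and 0.539 to 0.649 when any 1 array was left out. The probe sequences were not used here, so it was not tested whether the Capns2 probe set also picks up RNA of Lpcat2 that reads through this stretch.

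The genes flanking this pair did not pass. Mmp2, which encodes the matrix metalloproteinase gelatinase A, ends 48.0 kb before Capns2, at -1.89 kb from the start of Lpcat2. It read 10.13 and 10.18 in the control arrays and 10.38 and 10.23 in the Ctcfl arrays, a difference of 0.15 (SE 0.09, adjusted p = 0.598 by limma). Slc6a2, the noradrenaline transporter gene, starts 58.1 kb after Capns2 and had 0.12 (SE 0.16, adjusted p = 0.824), with overlapping groups. Further out, Irx6, a homeobox gene, had -0.08, and the carboxylesterase genes Ces1a, Ces1b and Ces1c had -0.10, -0.13 and -0.04, with adjusted p-values from 0.671 to 0.918. Within this stretch the differences above 1 log2 unit were those of Lpcat2 and Capns2.

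**Figure D1:**
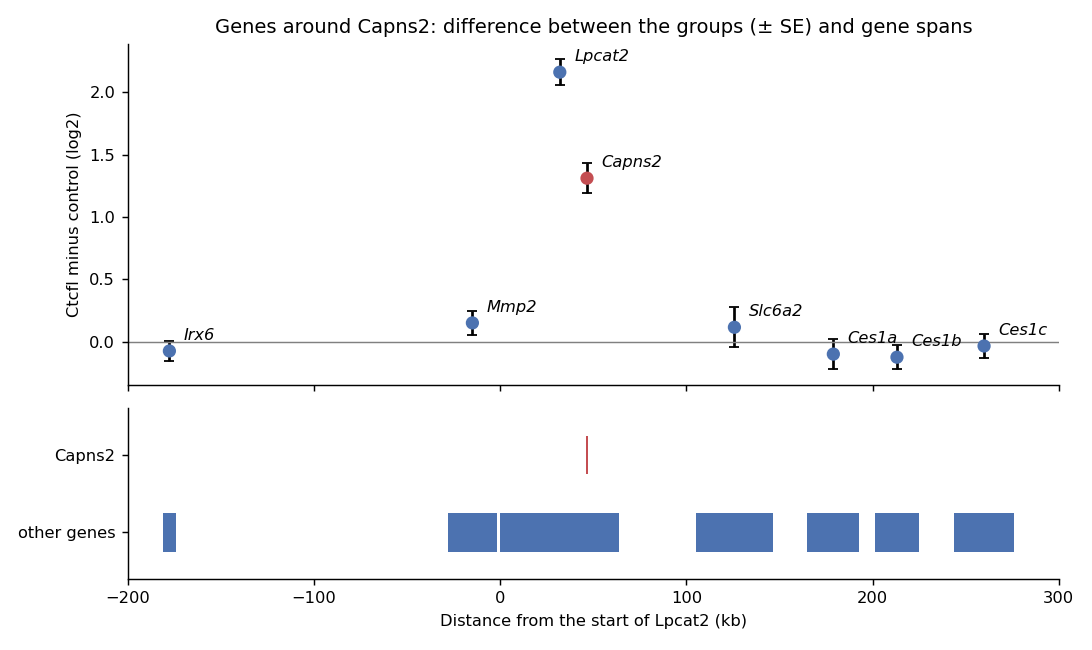
The upper panel plots the difference between Ctcfl and control arrays (log2, point with SE, 2 arrays per group) for each measured gene around Capns2 against distance from the start of Lpcat2 in kb, and the lower panel shows the gene spans. Lpcat2 (2.16) and Capns2 (1.31), which lies within it, stand above neighbours that range from -0.13 to 0.15.

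The paralog Capns1, the small subunit that the classical calpains need for stability and activity, differed little. It read 11.36 in both control arrays and 11.47 and 11.42 in the Ctcfl arrays. The Ctcfl arrays were slightly above the controls, by 0.09 (SE 0.08), or 1.06-fold. The values of the pair are therefore unlike: 2.48-fold for Capns2 and 1.06-fold for Capns1. Levels of the 2 genes are not set against each other, since probe sets differ in brightness.

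The catalytic subunits of the classical calpains were a little higher in the Ctcfl arrays. Capn1 read 8.41 and 8.46 in the control arrays and 8.65 and 8.61 in the Ctcfl arrays. The groups did not overlap, and the difference was 0.20 (SE 0.08), or 1.14-fold. Capn2 read 10.79 and 10.69 in the control arrays and 10.89 and 10.90 in the Ctcfl arrays. These groups did not overlap either, but the controls were 0.10 apart, against a difference between the group means of 0.16 (SE 0.09), or 1.11-fold.

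Calpastatin differed by a similar amount. Cast, which has several repeated inhibitory domains that each block a calpain molecule, read 9.30 in both control arrays and 9.36 and 9.53 in the Ctcfl arrays. The difference of 0.15 (SE 0.09) came mostly from Ctcfl replicate 2, without which it was 0.06. Capn1, Capn2, Capns1 and Cast, the 4 parts of the classical system, thus had differences between 0.09 and 0.20 in the same direction. Such sizes are common, as 81.9% of all genes differed by at most 0.20 in either direction. Since the genes were picked on this comparison, nothing is read from the shared direction.

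Among the non-classical calpains, Capn6 was the only member with lower values in the Ctcfl arrays. Its product lacks the active-site cysteine and is known to stabilise microtubules. It read 7.49 and 7.46 in the control arrays and 7.08 and 7.13 in the Ctcfl arrays. The groups lay well apart, with replicates within 0.05 of each other, and the mean was 1.29-fold lower (log2 difference -0.37, SE 0.08). Of all genes, 271 (1.36%) had a difference as low or lower. Pak3, a p21-activated kinase gene that lies 4.44 kb from Capn6 on the X chromosome, had -0.16 (SE 0.09, adjusted p = 0.564 by limma). Dcx, the nearest measured gene on the other side at 28.4 kb, had 0.04 (SE 0.21, adjusted p = 0.963 by limma), with overlapping groups.

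The other non-classical members had no clear difference. Capn7, a relative of the fungal protease PalB that interacts with the ESCRT machinery, read 8.30 and 8.33 in the control arrays and 8.35 and 8.59 in the Ctcfl arrays. Its difference of 0.16 (SE 0.11) was 0.04 without Ctcfl replicate 2, and the lower Ctcfl array was just above the controls. Capn5, a calpain known in humans for variants that cause an inflammatory eye disease, read 5.94 and 5.55 in the control arrays and 5.95 and 5.85 in the Ctcfl arrays. Its groups overlapped, and the difference of 0.16 (SE 0.14) turned to -0.04 without control replicate 2. Capn15, the homolog of the fly gene small optic lobes, read 6.26 and 6.47 in the control arrays and 6.43 and 6.36 in the Ctcfl arrays. These groups also overlapped (difference 0.03, SE 0.10), and leaving out single arrays moved the value between -0.08 and 0.14.

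**Figure D2:**
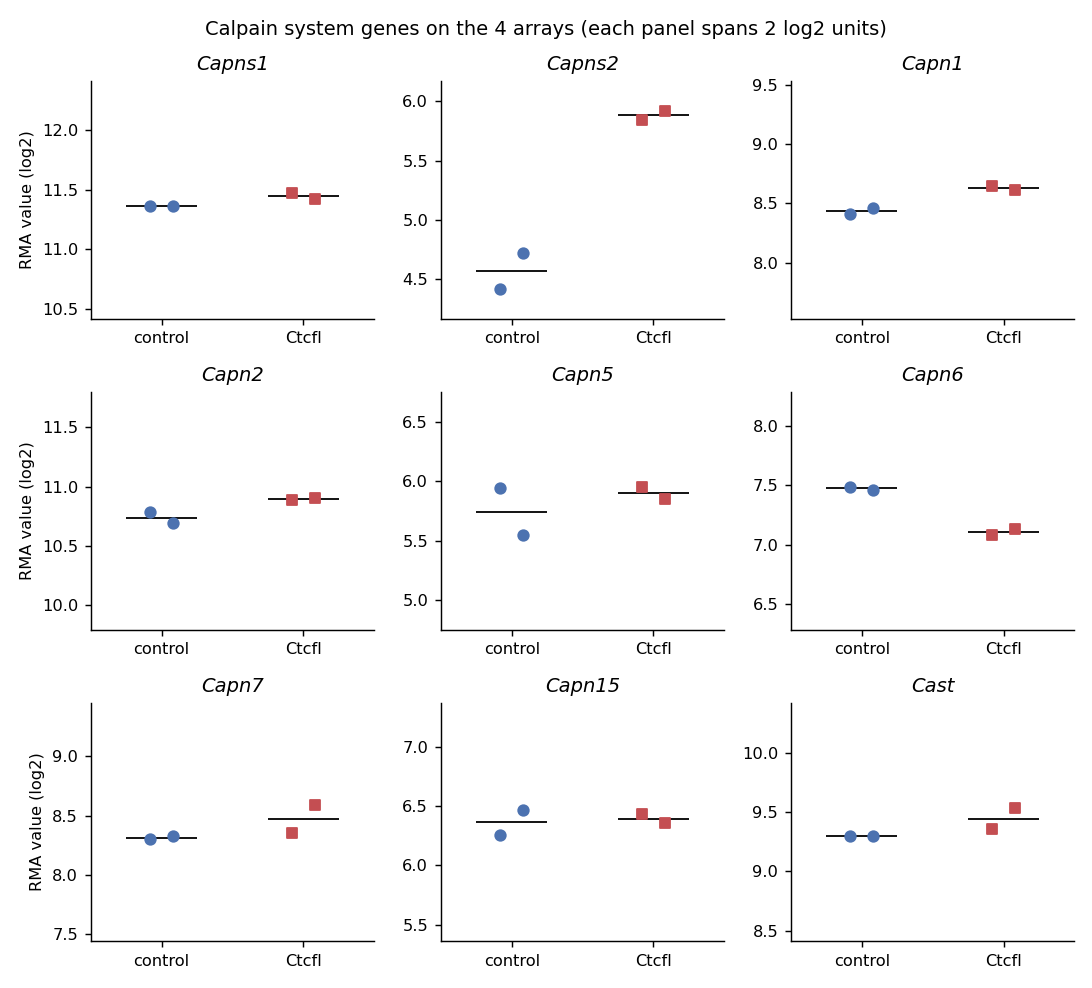
Each panel plots the expression value (log2) of 1 calpain system gene on the 2 control arrays (circles) and the 2 Ctcfl arrays (squares), with the group means as lines; every axis spans 2 log2 units. Capns2 moves from 4.57 to 5.88 and Capn6 from 7.48 to 7.11, while the groups overlap for Capn5 and Capn15.

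Over the 9 genes, 8 had higher means in the Ctcfl arrays, as 50.6% of all genes did, and 1 had a lower mean. In 6 both Ctcfl arrays were above both controls (20.6% of all genes) and in 1 both were below (20.6%). The median difference of the 9 genes was 0.16, against 0.00 over all genes. None of the 9 passed an adjusted p of 0.05 by limma (0.0451% of all genes), and 2 had an unadjusted p under 0.05 (10.7% of all genes). Since the genes were picked on this comparison, nothing is read from these counts. In RNA from whole cultures, a change in every cell and a change in the share of expressing cells cannot be told apart.

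**Figure D3:**
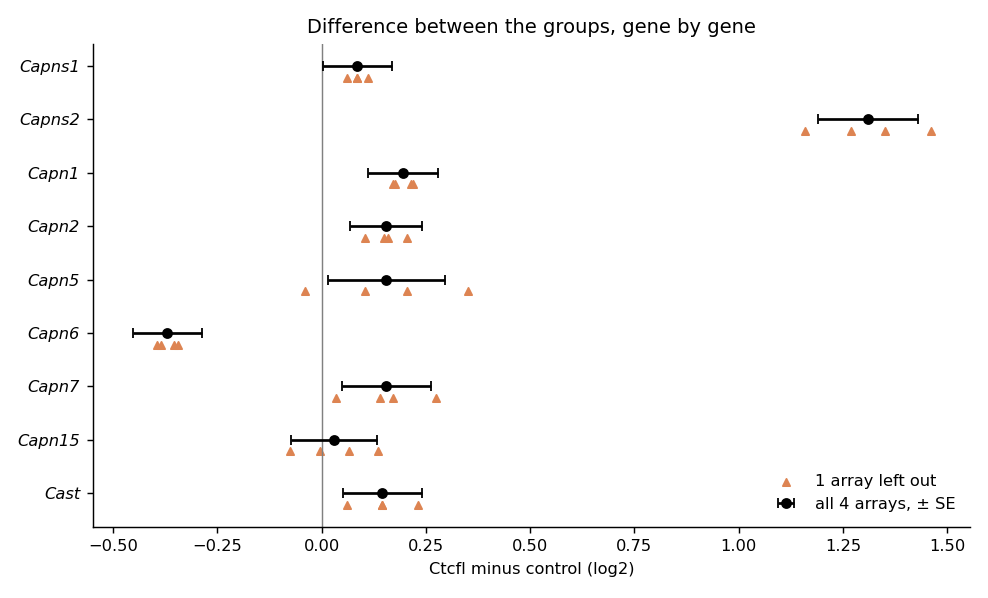
The plot gives the difference between Ctcfl and control arrays (log2) for each calpain system gene, with its SE over 4 arrays (circles) and the values with 1 array left out (triangles). Capns2 stays between 1.16 and 1.46 and Capn6 between -0.40 and -0.35, while Capn5 and Capn15 cross 0.

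The genes next to the other members gave no second pair like Lpcat2 and Capns2. In all, 23 genes were the nearest measured neighbour on either side of a member or overlapped one, and 5 of them overlapped: Lpcat2 with Capns2, Gm10814 with Capn1, Omp with Capn5, D630044L22Rik with Capn15 and Erap1 with Cast. Besides Lpcat2, none of the other 22 passed (limma, 1 at an unadjusted p under 0.05), and their differences ran from -0.16 to 0.23. The highest was that of Dnah1, an axonemal dynein gene 10.7 kb from Capn7, which went from 4.29 and 4.40 in the control arrays to 4.52 and 4.63 in the Ctcfl arrays (adjusted p = 0.461).

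By the distance between centred values on the 4 arrays, Capns2 was most like Slc29a3, a nucleoside transporter gene of lysosomes. Likeness was the Euclidean distance between the array values of 2 genes, each centred on its own mean, and was 0.23 log2 units for Slc29a3. Then came Col5a2, a type V collagen chain (0.27), Rab29, a small GTPase (0.42), Gm5785 (0.52) and Fzd4, a Wnt receptor (0.54). Lpcat2 was 76th in that order, at 0.85, as its step between the groups is larger. With 4 arrays in 2 groups, such a distance mostly ranks genes by the size of their step, and no p is given.

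The rest of the calpain family and its relatives were next examined in the fit over all genes. Of the other catalytic subunits, 6 of 7 had a value, none passed (limma, 0 at an unadjusted p under 0.05), and the median difference was 0.04, against 0.00 over all genes. Capn12, expressed in hair follicles, had -0.16 (SE 0.09, adjusted p = 0.557), and Capn10, studied in humans for type 2 diabetes risk, had -0.15 (SE 0.11, adjusted p = 0.668). All but Capn10 were below the median of every array, so a lack of difference says little for Capn8, Capn9, Capn11, Capn12 and Capn13. Capn14 had no value. The small subunits belong to the penta-EF-hand proteins, and the 4 relatives in that family (Pdcd6, Sri, Gca and Pef1) had differences from 0.01 to 0.09 and none passed (0 unadjusted). Sri, the calcium-binding protein sorcin, had 0.09 (adjusted p = 0.746), and Pef1, or peflin, had 0.08 (adjusted p = 0.786).

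Genes for proteins that calpain cuts did not pass as single genes. Of 25 cytoskeletal and adhesion substrates 23 had a value, 14 with higher and 9 with lower means, and none passed (limma, 3 unadjusted, 2 higher and 1 lower). Their median was 0.06, and 13 of them (56.5%) had groups that did not overlap, against 41.1% of all genes. Tln2, the second talin, read 6.67 and 6.62 in the control arrays and 6.42 and 6.20 in the Ctcfl arrays (difference -0.34, SE 0.10, adjusted p = 0.383). The other talin gene, Tln1, went the opposite way, from 9.52 and 9.49 in the control arrays to 9.64 and 9.68 in the Ctcfl arrays (0.16, SE 0.08, adjusted p = 0.545). Vcl, which encodes vinculin, a link between talin and actin, read 10.07 and 10.06 in the control arrays and 10.30 and 10.31 in the Ctcfl arrays (0.24, SE 0.08, adjusted p = 0.415). Replicates of Vcl were within 0.01 of each other, and both Ctcfl arrays were higher. Of 15 signalling and apoptosis substrates 12 had a value, with a median of 0.03, and none passed (1 unadjusted). That 1 was Src, the non-receptor tyrosine kinase of focal adhesions, which read 7.24 and 7.36 in the control arrays and 7.81 and 7.89 in the Ctcfl arrays. Its difference was 0.55 (SE 0.09), both Ctcfl arrays were higher, and the adjusted p was 0.180 by limma. Cdk5r1, whose p35 product calpain trims to p25, had 0.17 (SE 0.09, adjusted p = 0.539).

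Genes upstream of calpain and in processes that use it did not pass either. Of 17 genes for calcium entry, stores and sensing 14 had a value, with a median of 0.05, and none passed (limma, 0 unadjusted). The store sensor Stim1 had 0.20 (SE 0.08, adjusted p = 0.473) and the mechanically gated channel Piezo1 had 0.19 (SE 0.08, adjusted p = 0.483). All 16 plasma membrane repair genes had a value, with a median of 0.05, and none passed (1 unadjusted). Anxa6, an annexin that caps membrane wounds, read 8.16 and 8.02 in the control arrays and 7.88 and 7.73 in the Ctcfl arrays (difference -0.29, SE 0.10, adjusted p = 0.426). The calcium-binding protein S100a11 had 0.16 (SE 0.09, adjusted p = 0.544).

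Other cysteine proteases of the cell showed no call. Of 9 caspases 8 had a value, with a median of 0.02, and none passed (limma, 0 unadjusted). Casp8, the initiator of death receptor signalling, had 0.23 (SE 0.11, adjusted p = 0.513), and Casp2 had -0.16 (adjusted p = 0.580). All 14 cathepsin, legumain and cystatin genes had a value, with a median of 0.02, and none passed (0 unadjusted). Ctsw had -0.19 (adjusted p = 0.558) and Ctsc, the activator of granule serine proteases, had -0.21 (adjusted p = 0.617). Over the 8 lists together, 97 of 107 genes had a value, none passed, and 5 (5.15%) had an unadjusted p under 0.05, against 10.7% of all genes.

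**Figure D4:**
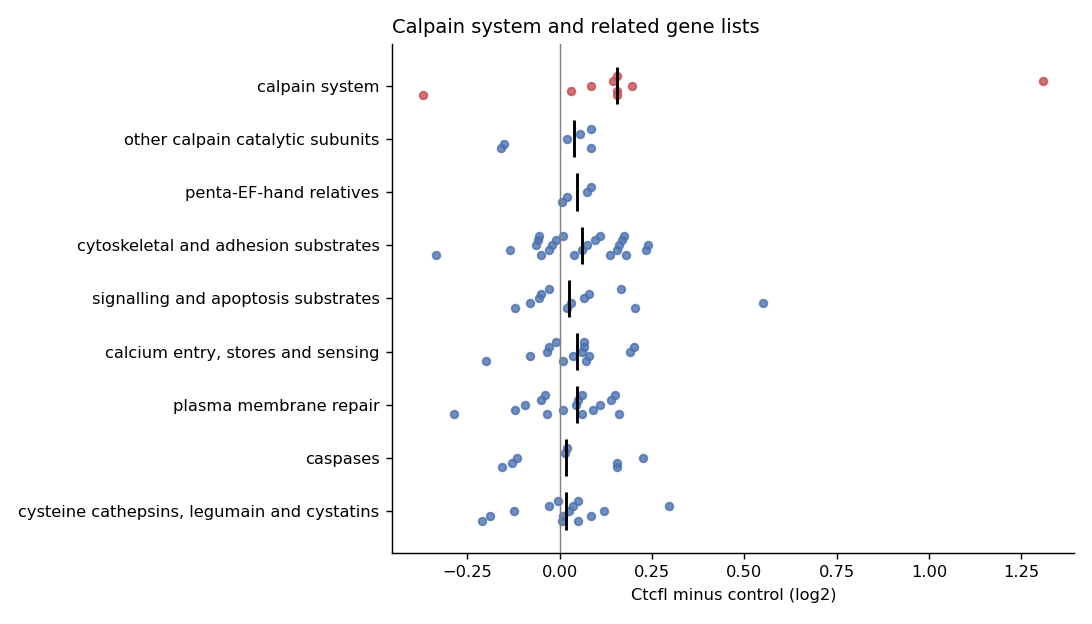
Each point is the difference between Ctcfl and control arrays (log2) of 1 gene, by list, with the list's median as a line; the top row holds the 9 calpain system genes. List medians lie between 0.02 and 0.06 below a top row whose outer points are Capns2 (1.31) and Capn6 (-0.37), and Src (0.55) is the highest point of the other lists.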

How the data were processed

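Total RNA of 4 samples was biotin-labelled and hybridised to Affymetrix arrays, per the labels' protocols. Per the labels, the authors produced the deposited log2 values by RMA in Expression Console. This method corrects background, quantile-normalises the arrays and summarises each probe set. The software version was not given in the sources used here. Of 35512 probe sets, 35511 had values. The 2016 platform annotation named the genes (21789 probe sets with 1 symbol, 1621 with several, 12101 not listed and unnamed here) and were checked against RefSeq for GRCm38.p6, where 21698 matched and 0 changed. That table gave positions and distances. The brightest probe set stood for each of 19938 genes. Promoter windows were RefSeq's (GRCm38.p6).

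The test was limma 3.58.1 under R 4.3.3 (functions lmFit and eBayes, two-sided, Benjamini-Hochberg over all genes, threshold 0.05, no filter on dim genes), after a check on simulated data. Array number limits the precision. The calpain genes and all lists were chosen with earlier results of these data known, and the 2 promoter motifs after the windows had been read. Named were all members, the genes overlapping them, the nearest genes on each side of Capns2 and the 5 genes most like Capns2. Per pathway list, up to 4 past the threshold were named, or else the 2 with the smallest unadjusted p. The cell type markers, Irx6, the Ces1 genes and other genes given by name were picked with their values in view. So were the nearest genes named for members other than Capns2, as most of those genes are not named. The alternatives tried were quantile normalisation, a replicate block, median centring, each array left out, every probe set fitted, averaged probe sets, a filter on the dimmest 33.3% of genes, and robust variances with an intensity trend (statmod 1.5.0). Python 3.11.15 with matplotlib 3.10.9 drew the figures.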

Additional observations from a re-analysis of the deposited data

How the results depend on the processing

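Under the 7 alternatives that keep all 4 arrays, the 63 values of the calpain genes differed from those reported by at most 0.02. Most of these values could not move, so their agreement is no check. Each calpain gene had 1 probe set, and the group means stay the same under all but quantile normalisation and median centring. Median centring shifts every gene alike. Leaving out 1 array moved them by up to 0.20, with ranges of 0.06 to 0.11 for Capns1, 1.16 to 1.46 for Capns2, -0.04 to 0.35 for Capn5, 0.04 to 0.28 for Capn7, -0.08 to 0.14 for Capn15 and 0.06 to 0.23 for Cast. With 2 arrays per group such a shift cannot exceed the pooled SD of the replicates, so its size against that SD is no check. The number of genes past the threshold varied widely. It was 9 (6 higher, 3 lower) as reported and 9 (7 higher, 2 lower) after quantile normalisation. It was 31 (16 higher, 15 lower) after median centring, 20 when the dimmest 33.3% of genes were dropped, and 479 (220 higher, 259 lower) when variances were robust and followed intensity. The last setting also called 1 cytoskeletal substrate, Vcl (adjusted p = 0.0295), and 1 signalling substrate, Src (adjusted p = 0.00153), where the reported fit called 0. It was 0 when every probe set was fitted (2764 unadjusted) and 0 whichever array was left out (1329 to 1663 unadjusted). With a replicate block it was 0 (1468 unadjusted), and Lpcat2 had an adjusted p of 0.136. The labels number the replicates but do not say that a number marks a shared culture or day, and the deviations of same-numbered arrays had a correlation of -0.10 across genes. Pairing the numbers the other way, chosen after seeing the data, gave 0 (2105 unadjusted). The cause of these differences was not tested. No detection calls were used, so the dim control values of Capns2 limit its fold.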
